A study of Mus musculus with 24 samples.

Results

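Aqp3, the 3 hyaluronan synthase genes Has1, Has2 and Has3, the hyaluronidase genes Hyal1 and Hyal2, and the hyaluronan receptor gene Cd44 were taken by name from a table of 17721 genes, and all 7 had a row in it. The table compares the daily rhythm of mouse back skin epidermis between EpiKO mice, in which Bmal1 was removed by a Cre recombinase under the keratin 14 promoter, and wild-type (WT) mice. The EpiKO side rests on 24 libraries from 8-week-old C57BL/6 males, 4 animals every 4 h from ZT0 to ZT20, where zeitgeber time (ZT) 0 is lights on in a cycle of 12 h of light and 12 h of dark. Keratin 14 is active in basal keratinocytes, so cells of other lineages in the same epidermis carry an intact Bmal1 gene. WT libraries are not among the samples analysed here, so genotype cannot be told apart from how each set was prepared or counted.

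Hyaluronan is a long sugar polymer that binds water between cells. Hyaluronan synthases sit in the plasma membrane, join sugar nucleotides made in the cytosol and push the growing chain out of the cell, where CD44 is its main receptor on keratinocytes and hyaluronidases cut it into fragments. Aquaporin 3, in the membrane of basal and lower suprabasal keratinocytes, lets water and glycerol pass, and mice without it have dry, less elastic skin. Regulation of Aqp3 in mouse skin by the clock protein CLOCK has been described, and the table sets the daily rhythm and mean level of each gene without BMAL1 in keratinocytes beside those in WT.

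For each gene the authors' deposited table holds a fitted cosine curve and mean level (log2) in each genotype, with no value for any single library. The spread between animals is therefore unknown, depth is unknown, and no test across animals could be made. The fit weighs 5 rhythm models, and a model's weight runs from 0 to 1 and is a probability given by the information criterion, not a p-value. A gene was put in a class (no rhythm, EpiKO only, WT only, same rhythm, different rhythms) when 1 model had a weight of at least 0.5. Means that the fit judged the same are set equal by that model, so equal values are not 2 separate measurements. Arntl, the gene for BMAL1, was in the WT-only class with a weight of 0.882 and a 4.65-fold cycle in WT per the authors' deposited table. Its mean was not lower in EpiKO, at 9.651 in EpiKO and 9.495 in WT (log2, the authors' deposited table), and a level summed over the gene does not show whether a part of it is deleted. Keratinocyte markers were high in both genotypes, with fitted means between 13.39 and 17.73 in EpiKO and between 13.68 and 17.82 in WT (log2) for the 7 basal markers, and the 5 adipocyte markers did not exceed 1.97 in either genotype in the authors' deposited table. Of 8 suprabasal keratinocyte markers 2 were higher in EpiKO and 4 lower, and of 7 sebocyte markers 5 were higher and 1 lower, with a median difference of 0.50 (log2). The summed level of the sebocyte markers was 14.08 in EpiKO and 14.09 in WT (log2), so their sum was not higher in EpiKO. Of 8 hair follicle markers 0 were higher and 4 lower in EpiKO, and of 6 melanocyte markers 0 were higher and 2 lower, the other 4 having equal means. Over all genes 32.7% of means were called higher in EpiKO and 37.4% lower.

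Promoter sequences are shown for Aqp3, whose window holds a TATA box, for Cd44, whose window holds a variant of the clock motif, and for Hyal2, the gene with the clearest daily rhythm in EpiKO. They run from 250 bases before to 50 bases after the transcription start that RefSeq gives on GRCm38.p6, and capitals mark the motifs found. The windows are chr4:41098134-41098433 on the minus strand for Aqp3, chr2:102901616-102901915 on the minus strand for Cd44 and chr9:107568913-107569212 on the plus strand for Hyal2.
Aqp3: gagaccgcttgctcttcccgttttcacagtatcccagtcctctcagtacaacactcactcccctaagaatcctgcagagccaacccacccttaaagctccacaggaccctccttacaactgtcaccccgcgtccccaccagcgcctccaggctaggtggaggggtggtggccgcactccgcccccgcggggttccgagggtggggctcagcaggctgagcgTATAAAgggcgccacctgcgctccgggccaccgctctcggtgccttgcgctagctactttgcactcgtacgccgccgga
Cd44: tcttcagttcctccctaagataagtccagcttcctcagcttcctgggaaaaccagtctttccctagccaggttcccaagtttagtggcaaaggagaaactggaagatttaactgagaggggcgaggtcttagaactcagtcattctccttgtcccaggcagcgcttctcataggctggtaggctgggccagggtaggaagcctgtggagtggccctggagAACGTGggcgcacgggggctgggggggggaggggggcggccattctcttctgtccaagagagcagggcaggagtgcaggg
Hyal2: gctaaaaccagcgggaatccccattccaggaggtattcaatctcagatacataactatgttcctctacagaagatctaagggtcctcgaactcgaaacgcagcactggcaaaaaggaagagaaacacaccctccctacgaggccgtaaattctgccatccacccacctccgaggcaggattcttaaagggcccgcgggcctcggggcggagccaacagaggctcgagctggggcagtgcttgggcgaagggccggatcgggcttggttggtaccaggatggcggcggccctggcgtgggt

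Motifs were searched on both strands in the 5 members with a promoter in the RefSeq table, namely Aqp3, Has1, Hyal1, Hyal2 and Cd44. They were the E-box CACGTG, bound by BMAL1 with CLOCK and found in 7.15% of 32851 promoters, the related E-prime box CACGTT (4.68%), the D-box TTATGNAA (3.38%), the ROR element core AGGTCA (16.3%), the glucocorticoid receptor core AGAACA (19.0%) and the TATA box TATAAA (13.6%). None of these motifs overlap each other in the members. The Cd44 window holds an E-prime box on the opposite strand that begins at -30 from the start, the Aqp3 window a TATA box that begins at -29, and the Has1 window an AGGTCA on the opposite strand at -113 and an AGAACA at the start itself. The Hyal1 and Hyal2 windows hold none of the 6 motifs, which says only that these letters are not in these windows.

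Of the 7 genes, 5 were assigned no rhythm, a class that holds 56.7% of all genes in the table. Hyal2 was the 1 gene rhythmic in EpiKO only (4.31% of all genes) and Has2 the 1 gene with the same rhythm in both genotypes (16.7% of all genes). Of the 7, 0 were assigned to the WT-only class (8.41% of all genes) or to different rhythms (2.65% of all genes), and 0 were left without a class (11.3% of all genes). The 2 rhythmic members of 7 stand beside 32.0% of all genes in any rhythmic class. Several of these calls were close. The largest weight was under 0.6 for 4 of the 7 genes, against 22.5% of all genes, and its median was 0.578 in the members, against 0.803 in all genes.

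**Figure D1:**
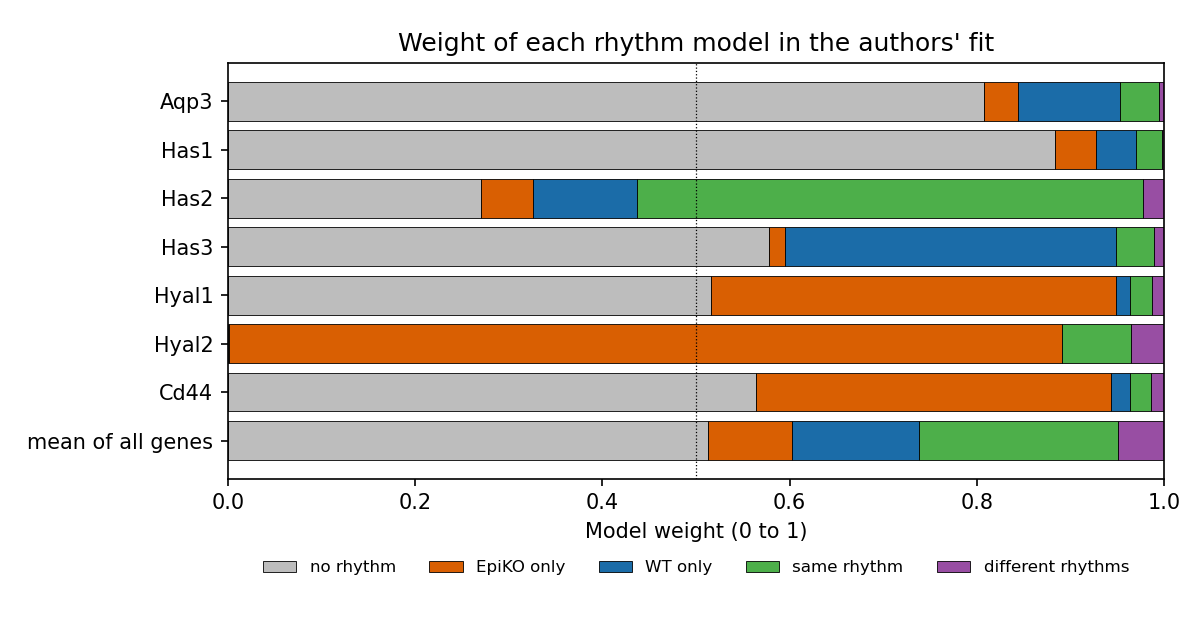
Weight of each of the 5 rhythm models (horizontal axis, 0 to 1) for the 7 genes and, in the lowest bar, the mean weight over all genes; the dotted line marks 0.5. Has1 and Aqp3 are mostly grey (no rhythm, 0.884 and 0.808), Hyal2 is mostly EpiKO only (0.890), and Hyal1 and Cd44 are divided between no rhythm and EpiKO only.

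Aqp3 (ENSMUSG00000028435; mm10 chromosome 4, 41092722 to 41098183, minus strand) had no rhythm in either genotype, with a weight of 0.808 per the authors' deposited table. Of genes in the no-rhythm class, 39.3% had a smaller weight. Among the rhythmic models the largest weight for Aqp3 was that of a rhythm in WT only, 0.109 in the authors' deposited table. The weights of all models with a rhythm summed to 0.0837 for EpiKO and 0.156 for WT. Its mean was fitted as the same in both genotypes, 11.46 (log2), with a weight of 0.747 for equal means per the authors' deposited table. This level lay above 94.1% of genes in EpiKO and 93.7% of genes in WT.

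Per kilobase of exon, on the log2 scale, Aqp3 had the highest level of the 7 genes, 10.59 in both genotypes. Cd44 followed with 9.75 in EpiKO and 9.63 in WT. The hyaluronidases came next, Hyal2 at 7.49 in EpiKO and 7.27 in WT, and Hyal1 at 6.82 in EpiKO and 7.81 in WT, so that their order was opposite in the 2 genotypes. That reversal rests on the Hyal1 difference, which is uncertain because many of its exon bases are shared with other genes, as given with Hyal1. The synthases were the lowest, with Has3 at 4.84 in both genotypes, Has1 at 2.13 in both, and Has2 at 1.84 in EpiKO and 0.73 in WT. Without values per animal it cannot be said which neighbours in this order differ beyond their spread.

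**Figure D2:**
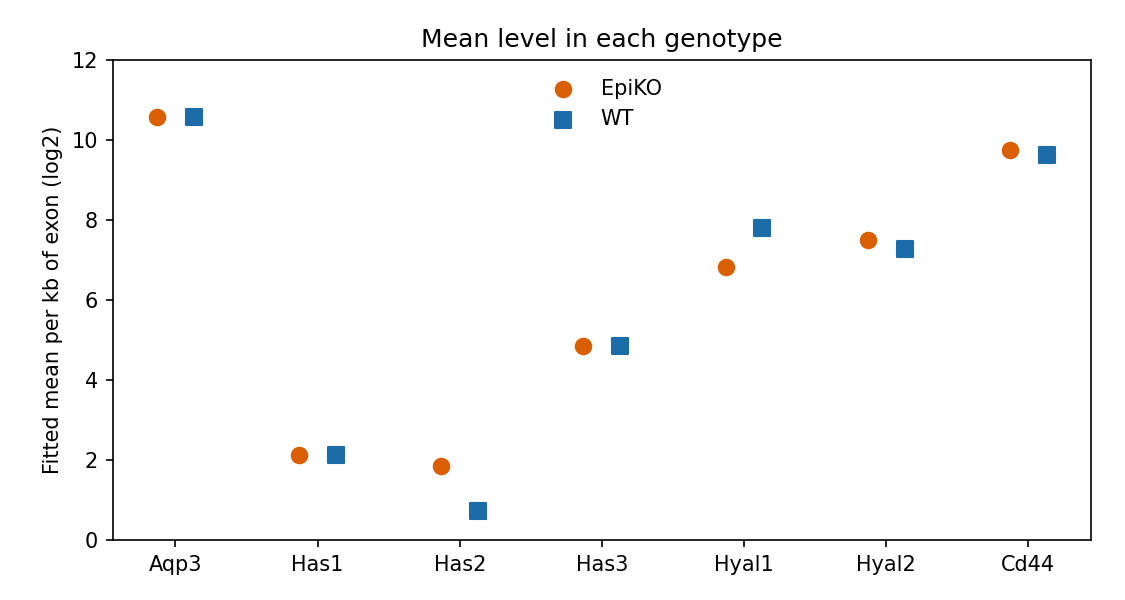
Fitted mean level per kilobase of exon (log2, vertical axis) of each gene in EpiKO (circles) and WT (squares). Aqp3 and Cd44 lie above 9 in both genotypes, the 3 synthases below 5, and Hyal1 is the gene with a lower level in EpiKO.

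Has3 (ENSMUSG00000031910; chromosome 8, 106870242 to 106884566, plus strand), the synthase with the highest level here, was assigned no rhythm with a weight of 0.578, and a rhythm in WT only had 0.354 in the authors' deposited table. The first weight was 1.63 times the second. Its mean was fitted as equal in both genotypes at 7.52 (log2), with a weight of 0.866 for equal means per the authors' deposited table. Has1 (ENSMUSG00000003665; chromosome 17, 17843323 to 17855205, minus strand) had the largest no-rhythm weight of the 7 genes, 0.884, and the highest such weight of any gene in the table was 0.941. Its mean was also fitted as equal, at 4.30 (log2) with a weight of 0.873 per the authors' deposited table. That level lay above 33.0% of genes in EpiKO and 28.5% in WT.

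Has2 (ENSMUSG00000022367; chromosome 15, 56665627 to 56694539, minus strand), the main synthase of dermal fibroblasts, was the synthase assigned a rhythm, shared by both genotypes with a weight of 0.541, against 0.271 for no rhythm, in the authors' deposited table. The shared curve had a peak 2.16-fold above its trough and peaked at ZT20.7, late in the dark phase, in the authors' deposited table. Of genes in that class 6.70% had a larger amplitude, and the median of the class was 1.24-fold. The median mean of the class was 9.17 in EpiKO and 9.16 in WT (log2), far above the 3.92 and 2.81 of Has2. No error of the amplitude is given, so this rank does not show that Has2 cycles more strongly than most of the class. The fitted level of Has2 in EpiKO was 4.28 at ZT0, 3.74 at ZT4, 3.38 at ZT8, 3.56 at ZT12, 4.11 at ZT16 and 4.47 at ZT20 (log2). In WT it was 3.17 at ZT0, 2.62 at ZT4, 2.26 at ZT8, 2.45 at ZT12, 2.99 at ZT16 and 3.36 at ZT20 (log2). At these times the lowest fitted level of EpiKO lay just above the highest of WT. The equal amplitude and peak time of both genotypes are set by the model.

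The mean of Has2 was 3.92 in EpiKO and 2.81 in WT (log2), a difference of 1.11 or 2.16-fold, with a weight of 0.999 for different means per the authors' deposited table. Means higher in EpiKO were called for 32.7% of all genes, means lower in EpiKO for 37.4%, and 29.9% were fitted as equal. The level of Has2 lay above 31.3% of genes in EpiKO and 21.6% in WT. Markers of dermal fibroblasts differed in the same direction, with 5 of 9 higher in EpiKO, 0 lower and a median difference of 0.74 (log2), and their summed level was 10.66 in EpiKO and 10.04 in WT (log2). Among them Lum, a collagen-binding proteoglycan, had means of 3.19 in EpiKO and 1.90 in WT, and Col1a2, a chain of type I collagen, 8.23 in EpiKO and 7.49 in WT (log2, the authors' deposited table). Col1a1 and Col3a1 were fitted with equal means of 7.99 and 7.74 in both genotypes, and Col6a1 was the 1 fibroblast marker with an assigned rhythm, peaking at ZT21.1 in both, in the authors' deposited table. Endothelial markers were higher in EpiKO in 4 of 6 cases and lower in 0, and their summed level was 4.67 in EpiKO and 4.13 in WT (log2). The part of these cells in the Has2 difference was not tested. In such bulk samples a larger number of cells of a type and more RNA per cell cannot be told apart.

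Hyal2 (ENSMUSG00000010047; chromosome 9, 107567945 to 107572779, plus strand), a hyaluronidase anchored at the cell surface, was assigned a rhythm in EpiKO only with a weight of 0.890 per the authors' deposited table. This was 12.2 times the next weight, 0.073 for a rhythm shared by both genotypes, and no rhythm had 0.00109 in the authors' deposited table. The weights of models with a rhythm summed to 0.999 for EpiKO and 0.109 for WT. The EpiKO curve peaked 1.36-fold above its trough at ZT17.9, near the middle of the dark phase, in the authors' deposited table. Of the 764 genes in the EpiKO-only class 54.6% had a larger amplitude, so the amplitude of Hyal2 was close to the median of 1.42-fold, and 83.9% had a smaller weight.

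The fitted level of Hyal2 in EpiKO was 9.20 at ZT0, 9.01 at ZT4, 9.02 at ZT8, 9.21 at ZT12, 9.40 at ZT16 and 9.40 at ZT20 (log2), against a constant 8.99 in WT. The curve of EpiKO touched the WT level in the light phase and lay above it in the dark phase. The mean was 9.21 in EpiKO and 8.99 in WT (log2), a difference of 0.22 or 1.16-fold, with a weight of 1.00 for different means per the authors' deposited table. Of all genes 56.8% had a larger difference in either direction.

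**Figure D3:**
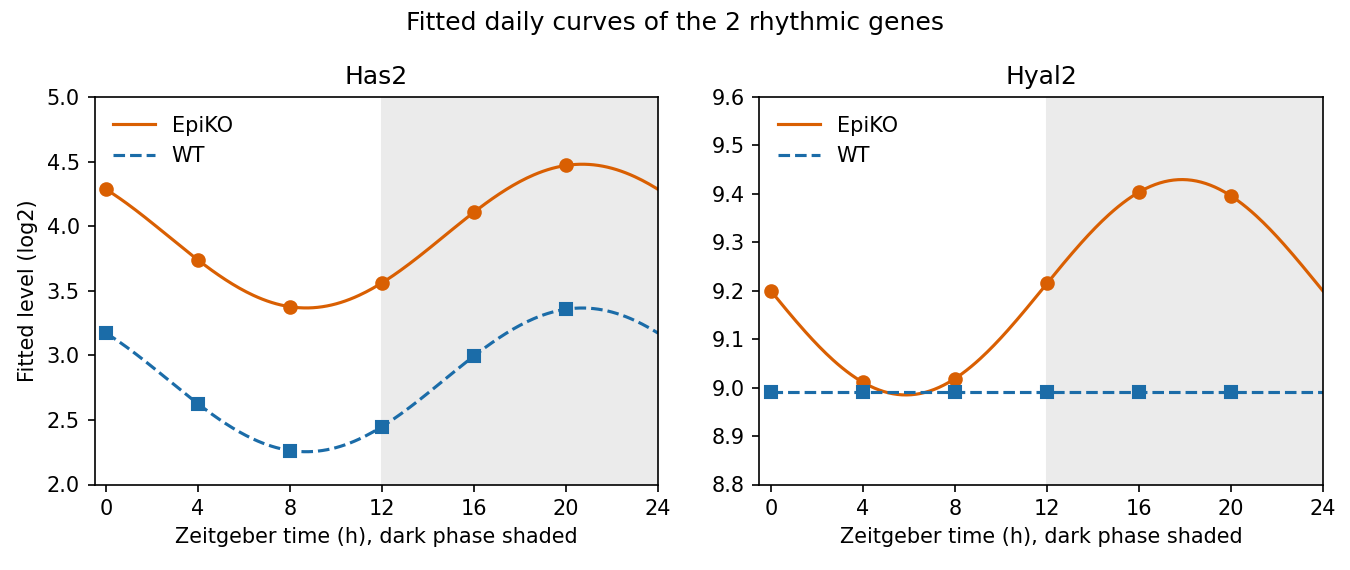
Fitted level (log2, vertical axis; the 2 panels have different ranges that do not begin at 0) against zeitgeber time for Has2 and Hyal2 in EpiKO (solid, circles) and WT (dashed, squares); markers stand at the 6 sampled times and the dark phase is shaded. The points are values of the fitted curves, not of animals; Has2 has 1 curve shape in both genotypes with a higher EpiKO mean, and Hyal2 a curve in EpiKO with a peak at ZT17.9 and a flat line in WT.

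Hyal1 (ENSMUSG00000010051; chromosome 9, 107576927 to 107581710, plus strand), the lysosomal hyaluronidase, lies next to Hyal2 and was assigned no rhythm with a weight of 0.516 per the authors' deposited table. A rhythm in EpiKO only followed with 0.433, a ratio between the first and second weight of 1.19. A rhythm in EpiKO had a summed weight of 0.469, and a rhythm in WT 0.0517. The mean of Hyal1 was 8.74 in EpiKO and 9.73 in WT (log2), a difference of -0.99 or a ratio of 0.503, in the authors' deposited table. It was the 1 member of 7 with a mean called lower in EpiKO, and 21.6% of all genes had a larger difference in either direction.

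The Hyal1 difference is uncertain because 51.9% of the exon bases of Hyal1 also lie in exons of other genes on the same strand. Naa80, an acetyltransferase gene, shares 1920 of the 3777 exon bases and Hyal3 shares 159. Reads from these bases fit more than 1 gene, and the rule by which they were counted is not given in those sources that were used. Naa80 had means of 9.11 in EpiKO and 9.71 in WT, and Hyal3, another hyaluronidase gene, 4.005 in EpiKO and 7.51 in WT (log2, the authors' deposited table). Over the whole table, 89.2% of the 249 genes with at least 50% of their exon bases shared in this way had a lower mean in EpiKO, with a median difference of -4.33 (log2). Among the 16254 genes with no such overlap 35.6% had a lower mean in EpiKO, and the median difference was 0. Between them, 50.9% of the 1217 genes with a smaller overlap had a lower mean in EpiKO, with a median difference of -0.09 (log2). Large drops were not confined to genes with overlap. Of the genes with none, 15.4% were lower in EpiKO by 1 (log2) or more and 4.57% higher by as much. Their differences ran from -4.16 at the 0.05 quantile to 0.96 at the 0.95 quantile (log2). The source of these drops was not tested, which limits every comparison of means between EpiKO and WT here. The overlap of Hyal1 lies just above the 50% boundary, which was chosen once the values were known. The other 6 members had no exon base shared on the same strand. On the opposite strand, Has2os covers 4.30% of the exon bases of Has2 and Chtf8 covers 5.52% of those of Has3. The part of the shared bases in the Hyal1 difference was not tested.

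**Figure D4:**
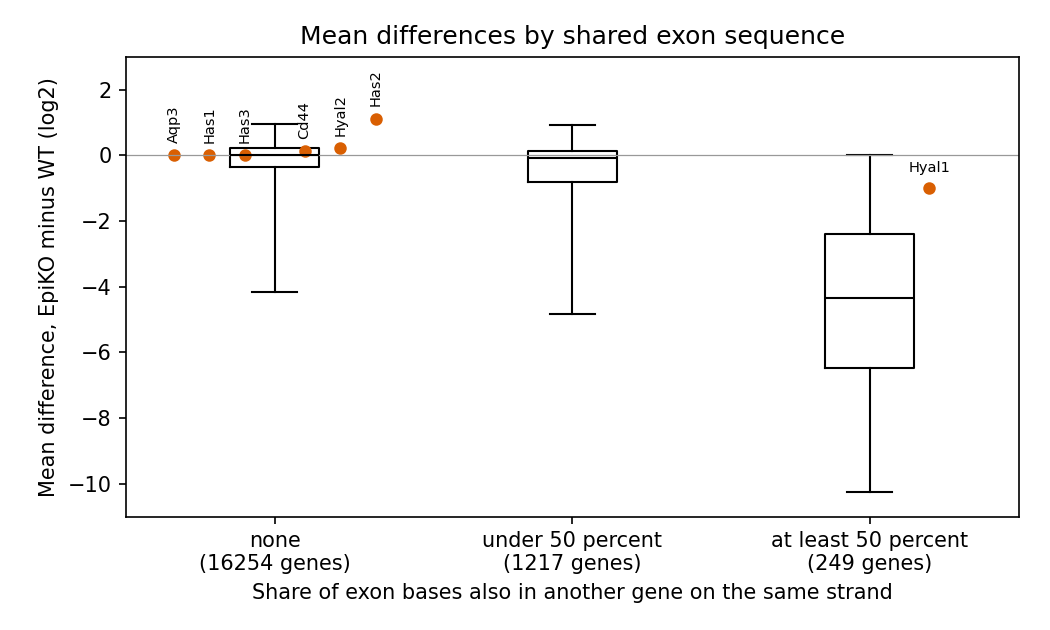
Mean difference EpiKO minus WT (log2, vertical axis) of genes grouped by the share of their exon bases that also lie in another gene on the same strand; boxes span the quartiles with the median as a line, whiskers run from the 0.05 to the 0.95 quantile, and points are the 7 genes. The median is 0 with no overlap, -0.09 with an overlap under 50% and -4.33 with one of at least 50%, the group in which Hyal1 lies, just past its boundary, at -0.99.

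Cd44 (ENSMUSG00000005087; chromosome 2, 102811141 to 102901665, minus strand) had the highest fitted mean of the 7 genes before division by length, 12.51 in EpiKO and 12.39 in WT (log2, the authors' deposited table). Different means had a weight of 0.507 and equal means one of 0.493, so the difference of 0.13 (log2) or 1.09-fold was barely called in the authors' deposited table. No rhythm had a weight of 0.564, and a rhythm in EpiKO only 0.380, in the authors' deposited table. The values sum all splice forms of the gene, so the standard form and the variants made by keratinocytes are not told apart. Leukocytes also carry CD44, and their markers were higher in EpiKO for 5 of 7 Langerhans or dendritic cell genes, 3 of 5 T cell genes and 3 of 6 other leukocyte genes, with 1 of the last lower. Over all genes 32.7% had a mean called higher in EpiKO and 37.4% one called lower. The other leukocyte genes summed to 8.96 in EpiKO and 9.21 in WT (log2). The summed level of the Langerhans or dendritic cell genes was 12.18 in EpiKO and 11.59 in WT, and that of the T cell genes 11.45 in EpiKO and 10.45 in WT (log2). The T cell sum is mostly Thy1, at 11.25 in EpiKO and 10.16 in WT (log2, the authors' deposited table). Cd3e and Cd3d, chains of the T cell receptor complex, were fitted with equal means of 6.64 and 5.18 (log2, the authors' deposited table). Cd3g, another chain of that complex, was higher in EpiKO, at 7.57 in EpiKO and 6.68 in WT (log2, the authors' deposited table). Cd2 was also higher, at 5.12 in EpiKO and 4.07 in WT (log2, the authors' deposited table). The part of leukocytes in the Cd44 values was not tested.

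A rhythm in EpiKO only was the model with the largest or second largest weight for 4 of the 7 genes, Hyal2, Hyal1, Cd44 and Has1, against 29.0% of all genes. For Has1 that weight was 0.0434, close to the 0.0428 of WT only, in the authors' deposited table. The weights of Hyal1 are uncertain too, as many of its exon bases are shared with other genes. Of the 249 genes with at least 50% of exon bases shared on the same strand 12.9% were rhythmic. Of genes with none shared 32.2% were. The mean weight of the EpiKO-only model over the members was 0.265, against 0.0900 over all genes. Hyal2, with 0.890, made up the largest part of the mean of the members. The mean weight of a shared rhythm was 0.110 in the members and 0.212 in all genes, and that of no rhythm was 0.517 in the members and 0.513 in all genes.

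The genes with fitted curves most like those of the rhythmic members were found by the distance between the 4 cosine and sine coefficients (log2) within the same class, the member itself and predicted or unnamed genes left out. For Hyal2, among the 725 EpiKO-only genes that remained, they were Gadd45gip1 (distance 0.0176), Ttyh2 (0.0193) and Prorsd1 (0.0209), which peaked between ZT17.77 and ZT17.92 with folds of 1.32 to 1.40. For Has2, among the 2876 remaining genes with a shared rhythm, they were Hist1h2ak (0.0223), Hist1h2ad (0.0503) and Fgd5 (0.0555). The means of Hist1h2ak were -2.05 in EpiKO and 6.20 in WT (log2, the authors' deposited table), so likeness in curve shape is not likeness in level.

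The genes that supply and surround these members were taken from lists of related genes. Of all genes, 32.0% were rhythmic, 32.7% had a mean called higher in EpiKO and 37.4% one called lower. The list counts below stand beside these shares. The rhythmic share was near that of all genes for precursors (31.25%), binding genes (27.8%) and hydration genes (33.3%). A gene named as cycling needed a weight of at least 0.5, and some weights were close to that. Of 16 genes for hyaluronan precursors, the sugar nucleotides from which synthases build the chain, 5 were rhythmic. Hk2, a hexokinase, cycled 2.10-fold in WT only with a peak at ZT16.2 in the authors' deposited table. For Hk2 the WT-only weight was 0.5004, barely past the minimum, against 0.392 for no rhythm, in the authors' deposited table. Gfpt1, which starts the hexosamine pathway, cycled 1.17-fold (ZT22.2) and Ugp2, which makes UDP-glucose, 1.16-fold (ZT4.40), both in WT only, in the authors' deposited table. For Gfpt1 the WT-only weight was 0.538, against 0.339 for no rhythm, in the authors' deposited table. Pgm3, a hexosamine pathway enzyme (1.28-fold, ZT21.5), and Gpi1, a glycolytic isomerase (1.17-fold, ZT10.7), shared a rhythm in the authors' deposited table. Means were higher in EpiKO for 8 of the 16 and lower for 3. The largest differences were those of Gnpnat1, at 2.41 in EpiKO and 7.70 in WT, and Gfpt2, at 2.73 in EpiKO and 1.07 in WT (log2, the authors' deposited table). Exons of a gene on the opposite strand cover 81.9% of those of Gnpnat1. Over the whole table, 43.2% of the 5126 genes with any opposite-strand exon overlap had a lower mean in EpiKO. Of the 12595 genes without such overlap 35.0% did, and the median difference was 0 in both groups. Overlaps of any size were pooled, so these values do not describe genes covered as far as Gnpnat1. The part of the opposite-strand overlap in the Gnpnat1 difference was not tested.

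Of 10 measured hyaluronan breakdown genes, Hyal1 and Hyal2 among them, 4 were rhythmic. Cemip, known for hyaluronan breakdown in human skin fibroblasts, cycled 4.10-fold in WT only, with means of 2.30 in EpiKO and 2.98 in WT (log2, the authors' deposited table). Gusb, the lysosomal glucuronidase, which acts on the fragments, cycled 1.23-fold in both genotypes (ZT15.9) in the authors' deposited table and was thus in another class than Hyal2. Means were higher in EpiKO for 3 of the 10 and lower for 5, and the median difference was -0.11 (log2).

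Of 18 measured hyaluronan-binding genes, Cd44 included, 5 were rhythmic. Hmmr, a hyaluronan-binding protein that is also a spindle protein of dividing cells, cycled 1.97-fold with a peak at ZT6.17 in EpiKO and 2.05-fold with a peak at ZT23.7 in WT in the authors' deposited table. Habp4 shared a 1.27-fold rhythm (ZT19.2), and Lyve1, a receptor of lymphatic vessels, one of 3.51-fold (ZT18.9), in the authors' deposited table. Vcan, a matrix proteoglycan, cycled 4.55-fold in WT only (ZT19.7), and Hapln1, a link protein, 11.9-fold in EpiKO only (ZT20.7), in the authors' deposited table. For Vcan the WT-only weight was 0.524, against 0.403 for a shared rhythm, in the authors' deposited table. Hapln1 had means of -1.29 in EpiKO and 0.48 in WT, and Lyve1 of 2.73 in EpiKO and 2.01 in WT (log2, the authors' deposited table), and no error of their amplitudes is given. The lowest EpiKO mean of any gene was -2.45 (log2), so the 11.9-fold cycle of Hapln1 was fitted near the lowest level. Means were higher in EpiKO for 3 of the 18 and lower for 4, Ncan with -2.29 in EpiKO and 7.80 in WT (log2) the farthest apart per the authors' deposited table.

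CD44 binds the cytoskeleton through ezrin proteins and is shed by membrane proteases, and of 24 such partner genes 14 were rhythmic. These were 1 in EpiKO only, 5 in WT only and 8 with the same rhythm. Many cycles were small, and 8 of the 24 stayed rhythmic with a minimum amplitude of 0.25 (log2). Over all genes the rhythmic classes had median EpiKO means of 7.97 to 9.17 (log2), against 4.47 for no rhythm. The share of all genes was not matched to the list for level. Adam17, a sheddase, cycled 1.34-fold in WT only (ZT23.2), and Mmp9, a matrix protease, 2.70-fold in WT only (ZT0.659), in the authors' deposited table. Erbb3, a receptor kinase (1.43-fold, ZT5.50), Vav2, a guanine nucleotide exchange factor (1.41-fold, ZT12.1), and Pak1, a kinase (1.26-fold, ZT3.83), shared a rhythm in the authors' deposited table. Means were higher in EpiKO for 15 of the 24 and lower for 5, with a median difference of 0.20 (log2). Over all genes 32.7% were called higher and 37.4% lower. Mmp9 had 6.05 in EpiKO and 4.85 in WT, and Spp1, which encodes osteopontin, 1.66 in EpiKO and 0.27 in WT (log2, the authors' deposited table).

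Among 7 measured aquaporins Aqp3 was the highest in EpiKO and in WT by fitted mean. Aqp9, which like Aqp3 passes glycerol, shared a 1.54-fold rhythm with a peak at ZT0.879 and a mean of 6.60 in both genotypes (log2, the authors' deposited table). Aqp1, an aquaporin of vessel walls, cycled 3.93-fold in WT only with means of 3.23 in EpiKO and 2.05 in WT (log2, the authors' deposited table). Its WT-only weight was 0.510, against 0.414 for no rhythm, in the authors' deposited table. Aqp7, another glycerol channel, cycled in WT only with an amplitude of 0.68 (log2), and its mean was 0.34 in EpiKO and 9.54 in WT (log2, the authors' deposited table), a gap whose source was not tested. The WT-only weight of Aqp7 was 0.571, against 0.155 for no rhythm and 0.129 for a shared one, in the authors' deposited table. The median EpiKO mean of all genes was 7.57 (log2). At so low a level a rhythm in EpiKO could go unseen, so the class does not show that one was lost. Aqp11 had 3.40 in EpiKO and 1.78 in WT (log2, the authors' deposited table).

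Of 21 genes that make, use or release glycerol, 8 were rhythmic. Agpat3, an acyltransferase, cycled 1.21-fold in EpiKO (ZT21.8) and 1.82-fold in WT (ZT24.0) in the authors' deposited table. Pld1, a phospholipase (1.59-fold, ZT0.781), and Lpin2, a phosphatase of glycerolipid synthesis (1.27-fold, ZT17.2), cycled in WT only, and Agpat2 (1.29-fold, ZT14.6) and Agpat1 (1.24-fold, ZT17.6) in both, in the authors' deposited table. Means were higher in EpiKO for 10 of the 21 and lower for 4. Lpl, a lipase that frees fatty acids from triglycerides, had means of 8.03 in EpiKO and 10.27 in WT, and Gk5, a glycerol kinase, 9.78 in EpiKO and 8.57 in WT (log2, the authors' deposited table).

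Water is also held in the stratum corneum by breakdown products of filaggrin-type proteins, and of 15 measured genes for these 5 were rhythmic. Flg2 shared a 2.17-fold rhythm (ZT2.07) and had means of 9.37 in EpiKO and 12.70 in WT (log2, the authors' deposited table). Casp14, a protease that processes filaggrin, shared a 1.22-fold rhythm (ZT6.11), and Rptn, a cornified envelope protein, a 2.09-fold one (ZT16.8), in the authors' deposited table. Ggct, an enzyme that forms pyroglutamate, cycled 1.43-fold in WT only (ZT22.3) in the authors' deposited table. Hrnr had means of 7.95 in EpiKO and 12.01 in WT (log2, the authors' deposited table), and the list had 4 means higher in EpiKO and 6 lower.

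Of 10 genes of the response to osmotic stress 4 were rhythmic. Slc6a6, the taurine transporter, cycled 1.68-fold in EpiKO (ZT12.1) and 3.62-fold in WT (ZT10.3) in the authors' deposited table. Slc5a3, the inositol transporter, shared a 1.61-fold rhythm (ZT19.1), Nfat5, the transcription factor of this response, a 1.19-fold one (ZT3.98), and the kinase gene Wnk1 cycled 1.22-fold in WT only (ZT0.474), in the authors' deposited table. Means were higher in EpiKO for 2 of the 10 and lower for 4, among them Lrrc8a, a subunit of the volume-regulated anion channel, with 7.76 in EpiKO and 9.68 in WT (log2, the authors' deposited table). Of the exon bases of Lrrc8a 66.2% lie in another gene on the same strand. Slc6a12, the betaine transporter, was at 0.085 in EpiKO and -1.29 in WT (log2, the authors' deposited table).

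**Figure D5:**
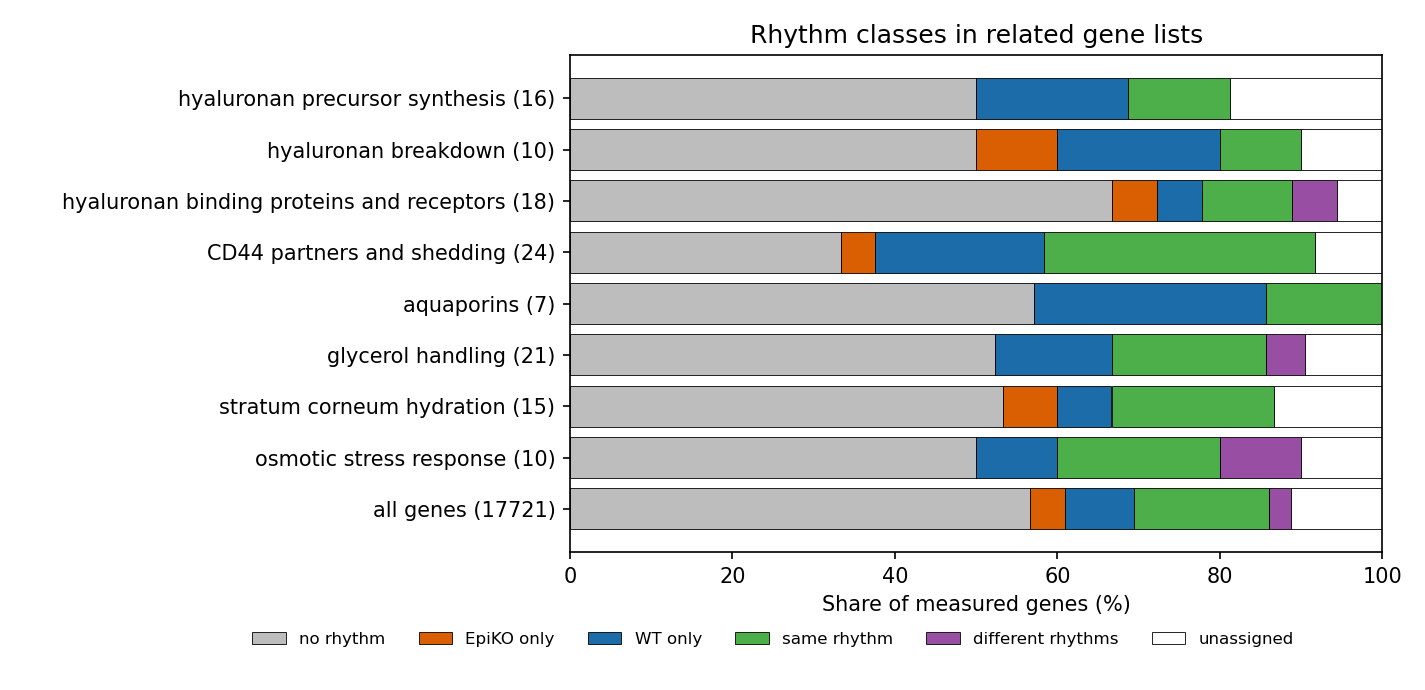
Share of the measured genes of each list (number in brackets) in each rhythm class (%, horizontal axis), with all genes of the table in the lowest bar. The share in any rhythmic class lies between 27.8% for hyaluronan-binding genes and 58.3% for CD44 partners, beside 32.0% for all genes, which are not matched for level.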

How the data were processed

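Epidermis of EpiKO mice was sequenced per the labels' protocols as polyadenylated RNA with a stranded kit and single reads of 51 bases. The submitters' processing notes name HISAT2 2.2.1, Trimmomatic 0.36, featureCounts 1.6.0, SAMtools 1.3.1 and edgeR, and mm10 as the build, without order or settings. Per the series design text, EpiKO and WT rhythms were compared with dryR. In the deposited table model weights lie between 0 and 1, means and amplitudes are log2 values, and peak times are hours. The side that is not WT has a label of its own in the header and was taken as EpiKO. For all 5062 EpiKO and 5914 WT rhythms the amplitude was the peak-to-trough height of the curve drawn from its coefficients (tolerance 1e-06), and folds are 2 to that power.

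Classes, mean calls (weight at least 0.5 for different means), gene lists and distances between curves were computed with Python 3.11.15, NumPy 2.4.6 and pandas 2.3.3. The code for class and mean calls was run on simulated weights with planted answers. That checks only that the code reads weights correctly, not whether calls hold in noisy data. A symbol was found for 17720 of 17721 identifiers, and 195 of the 213 listed symbols are in the table. Exon unions, overlaps and positions come from GENCODE M21 (mm10), promoters from RefSeq (GRCm38.p6). Levels per kilobase subtract log2 of the exon length. Shared exon bases are those inside exons of another annotated gene, and a boundary was set at 50%. Of windows of 51 bases, 49.6% in Hyal1, 4.77% in Has3, 2.05% in Has2 and 0.0562% in Aqp3 occur in another gene's transcripts, and 0 in the others. The members and lists were chosen with earlier results of these data known. Named are all members, per list up to 5 rhythmic genes by amplitude and the 2 with the largest called mean difference, and the 3 nearest genes per rhythmic member. Some genes that this rule selects are counted in their lists but not reported here by name. Arntl, Naa80, Chtf8, Has2os and the cell type markers named singly fall outside this rule and were chosen after their values were seen. No values per library were used, so the planned tests and replicate checks were not run.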

Additional observations from a re-analysis of the deposited data

How the results depend on the processing

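No paired analysis was possible because the table holds no values per library, and for the same reason no replicate could be left out. With a minimum weight of 0.8, Has2 (0.541), Has3 (0.578), Hyal1 (0.516) and Cd44 (0.564) lost their class, leaving 2 members with no rhythm and 0 with the same rhythm, while Aqp3, Has1 and Hyal2 were still assigned. The number of rhythmic genes at 0.8 was 3 for hyaluronan precursors, 2 each for breakdown, binding and glycerol genes, 9 for CD44 partners, 0 for aquaporins and 1 for hydration. With no minimum weight the precursors had 8. A minimum amplitude of 0.25 (log2) left 2 precursors and 8 CD44 partners, and leaving out genes under the 0.25 quantile of level left 3 binding genes. The rhythmic share of all genes is not given at these other settings. The counts therefore do not show whether a list changed more or less than all genes did. The mean calls of Hyal2 (0.22) and Cd44 (0.13) were lost with a minimum difference of 0.5 (log2), and that of Cd44 also with a weight of 0.8. Centring on the median of all genes shifts nothing, since that median is 0. Centring on the median of genes whose means differ (-0.14), added after seeing the data, turned the direction of none of the 4 called means. Calls rest on model weights that centring leaves alone, so this says nothing about the 3 equal means. With coefficients scaled to unit length 0 of the 3 genes nearest to Has2 and 1 of the 3 nearest to Hyal2 were the same. These values carry no error between animals, and depth is unknown.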
